A study of Mus musculus with 8 samples.

Results

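The genes described here are those of the red blood cell: the globins, the regulators of erythroid development, the heme and iron pathway, and the proteins of the red cell membrane. A list of 44 such genes was taken, of which 43 were found in the GENCODE M21 annotation of mm10 (*Ahsp* was not analysed here). A peak was tied to a member if its nearest protein-coding transcription start site (TSS) was the member's or if it lay within 10 kb of the gene body, and all peaks in windows around the α-globin and β-globin loci were added. Of 15736 differentially accessible peaks in the deposited lists, 52 belonged to these genes, 47 through the gene rule and 5 through a globin window alone.

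The assay was ATAC-seq of hearts of E10.5 mouse embryos, which reads chromatin accessibility from the places where a transposase, Tn5, can insert into DNA. WT hearts (4 samples) were compared with *Chd4-CMko* hearts (4 samples), to ask how loss of the chromatin remodeler CHD4 from cardiomyocytes alters accessibility. *Chd4-CMko* is a conditional knockout of *Chd4*, and the crosses that the study describes for E10.5 embryos combined *Chd4* fl/fl with *Tnnt2* Cre/+; *Chd4* fl/+, so that Cre follows a cardiomyocyte gene and not an erythroid one. Controls were littermates and both sexes were used. Each sample was a pool of whole hearts (3 hearts in the study's methods, 4 in the sample labels) that had been frozen, thawed and dissociated, with no sorting step described. The 2 deposited lists are pooled over the samples of a genotype: 12991 peaks with at least 2-fold higher signal in *Chd4-CMko*, called gained below, and 2745 with higher signal in WT, called lost. Without a value for each sample, no replicate spread and no test between genotypes could be given for any peak, and counts are set beside the same counts over the whole lists. The study's methods give a read depth for each sample, but the depth behind a single peak is unknown here.

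Primitive erythroid cells are the first blood cells of the embryo and, in the mouse, still carry a nucleus when they circulate through the heart. They express embryonic globins, *Hba-x* in the α-globin locus and *Hbb-y* and *Hbb-bh1* in the β-globin locus. Definitive cells, which arise later, express the adult genes of the same loci. Both loci are switched on by distal enhancers: those of α-globin lie in introns of the neighbouring gene *Nprl3*, and those of β-globin form the locus control region upstream of *Hbb-y*. GATA1, KLF1, TAL1 and NFE2 are the transcription factors best known for binding there.

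The sequences of the peaks that carry a GATA string in a globin window, of the lost peaks with one at the promoter of another member, and of the *Hbb-y* start are shown first, since the results turn on these elements. They were read from the plus strand of mm10 (GRCm38.p6), with bases of annotated untranslated regions left out. The gained promoter peak of *Sptb* and 1 of those of *Ank1* also hold a GATA string, but it does not lie in the bases that remain after this step, and they are not shown. Capitals mark a GATA string (GATA with A or T before it and A or G after it) or the core shared by AP-1 and NFE2 (TGAGTCA), on either strand. In the gained β-globin peak they mark instead a match to the CTCF consensus, and its GATA string is in lower case.
Lost peak in an *Nprl3* intron, 30.6 kb upstream of *Hba-x*, chr11:32245773-32245923: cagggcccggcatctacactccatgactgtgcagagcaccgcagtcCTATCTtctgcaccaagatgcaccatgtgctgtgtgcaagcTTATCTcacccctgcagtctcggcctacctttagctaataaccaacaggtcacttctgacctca
Lost peak in an *Nprl3* intron, 25.3 kb upstream of *Hba-x*, chr11:32251002-32251152: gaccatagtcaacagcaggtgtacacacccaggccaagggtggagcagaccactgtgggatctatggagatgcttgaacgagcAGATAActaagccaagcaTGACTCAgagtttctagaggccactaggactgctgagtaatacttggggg
Lost peak 7.88 kb upstream of *Hbb-y*, chr7:103861025-103861175: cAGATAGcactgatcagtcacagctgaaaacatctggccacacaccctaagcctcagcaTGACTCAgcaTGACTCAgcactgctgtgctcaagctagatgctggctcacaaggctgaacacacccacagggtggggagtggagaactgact
Lost peak 12.7 kb upstream of *Hbb-y*, chr7:103865872-103866022: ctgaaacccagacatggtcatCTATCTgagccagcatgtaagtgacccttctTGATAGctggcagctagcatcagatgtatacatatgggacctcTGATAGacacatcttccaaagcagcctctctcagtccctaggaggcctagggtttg
Lost peak at the *Hbb-y* start, upstream part, chr7:103853217-103853309: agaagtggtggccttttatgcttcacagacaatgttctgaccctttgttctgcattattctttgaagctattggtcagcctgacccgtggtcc
Gained peak 60.0 kb upstream of *Hbb-y*, chr7:103913134-103913284: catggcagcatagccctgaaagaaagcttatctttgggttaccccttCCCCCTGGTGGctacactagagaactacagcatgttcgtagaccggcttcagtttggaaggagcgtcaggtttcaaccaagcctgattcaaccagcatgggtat
Lost peak at *Alas2*, chrX:150549759-150549909: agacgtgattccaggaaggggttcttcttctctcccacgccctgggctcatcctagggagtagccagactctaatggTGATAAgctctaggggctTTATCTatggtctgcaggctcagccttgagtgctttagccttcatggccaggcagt
Lost peak at *Alas2*, chrX:150564789-150564939: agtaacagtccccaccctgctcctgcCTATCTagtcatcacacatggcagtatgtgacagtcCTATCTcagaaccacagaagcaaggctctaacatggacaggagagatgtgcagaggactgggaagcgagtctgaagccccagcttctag
Lost peak at the *Trim10* start, chr17:36869385-36869535: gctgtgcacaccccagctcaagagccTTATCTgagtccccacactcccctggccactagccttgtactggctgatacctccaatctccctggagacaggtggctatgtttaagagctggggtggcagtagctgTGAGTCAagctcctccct
Lost peak upstream of *Kel*, chr6:41706366-41706516: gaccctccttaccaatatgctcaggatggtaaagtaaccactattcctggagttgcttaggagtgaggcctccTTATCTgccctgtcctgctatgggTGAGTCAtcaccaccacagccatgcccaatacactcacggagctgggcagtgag

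The listed erythroid genes carried lost peaks more often than all protein-coding genes did, while gained peaks were about as common at them as elsewhere. The members were chosen with earlier results of these data known, so the counts describe this list and not erythroid genes at large. A lost peak was tied to 12 of 43 members (27.9%), beside 10.8% of all 21951 protein-coding genes under the same rule. By the nearest protein-coding TSS alone, it was 8 members (18.6%), beside 9.62% of all genes. A gained peak was tied to 14 members (32.6%), beside 37.4% of all genes. Within 3 kb of a TSS, 5 members had a lost peak (11.6%, beside 1.23% of all genes) and 5 had a gained peak (11.6%, beside 12.3%). The lost set within 3 kb comprised *Alas2*, *Hba-x*, *Hbb-y*, *Kel* and *Trim10*, and the gained set *Ank1*, *Gfi1b*, *Sptb*, *Tspo2* and *Zfpm1*. In whole hearts, fewer erythroid cells and less open chromatin in each such cell cannot be told apart.

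Counted as peaks, 18 of the 52 were lost and 34 gained. The gained share was 65.4% (Wilson 95% interval 51.8% to 76.8%, which covers counting error only), beside 82.6% of all listed peaks. Of the members, 10 had lost peaks alone, 12 had gained peaks alone and 2, *Bcl11a* and *Sptb*, had both, beside 6.36% of all protein-coding genes with both. Lost peaks alone were thus found at 41.7% of the 24 members with any listed peak, beside 10.6% of the 9175 protein-coding genes with one. The members had a median gene body of 18010 bp and all protein-coding genes one of 17403 bp, but the stretch over which a member's TSS is the nearest was not measured. With the 7 globin genes and their windows set aside, which was decided after the counts were seen, 8 of 36 members (22.2%, beside 10.8% of all genes) had a lost peak and 14 (38.9%, beside 37.4%) a gained one. Lost member peaks then numbered 9, and the gained share was 78.0%, closer to the 82.6% of all listed peaks.

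**Figure D1:**
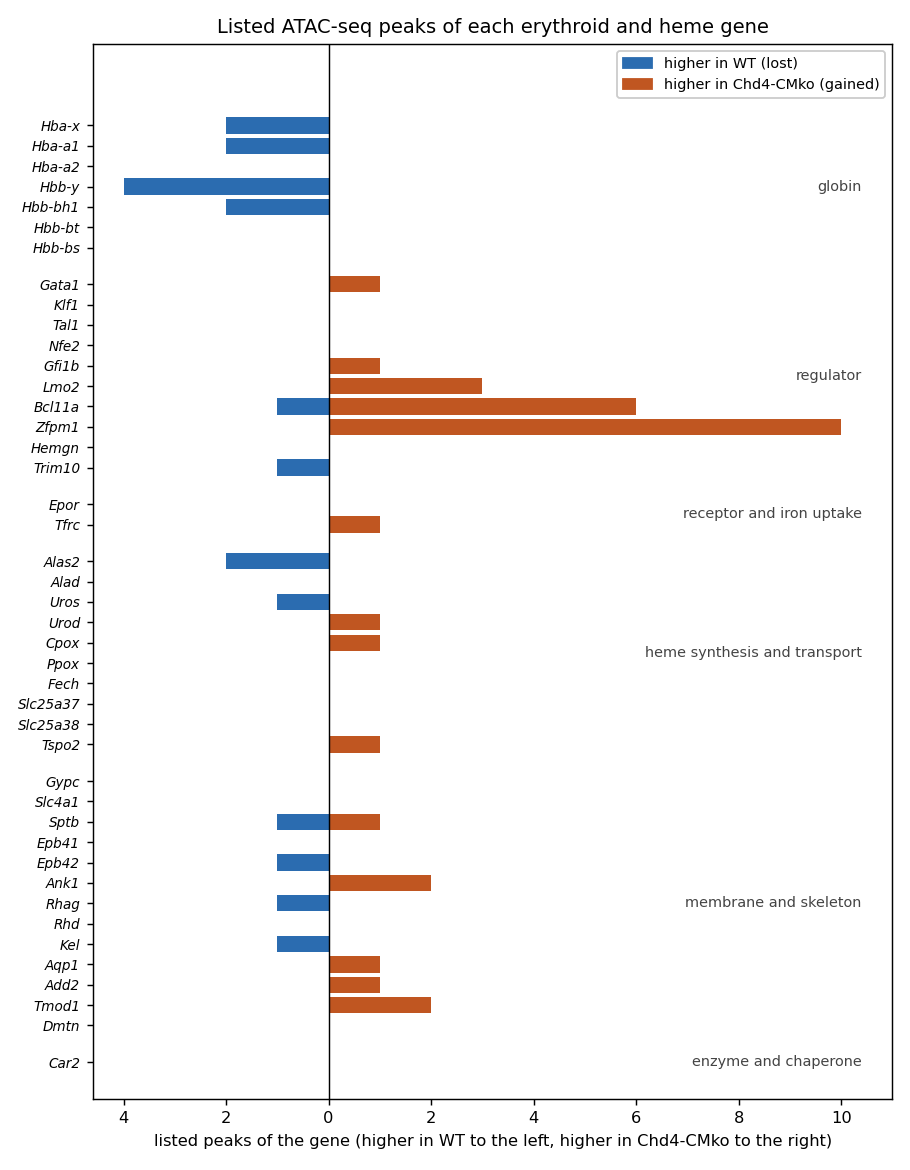
Number of listed peaks tied to each of the 43 members (horizontal axis), with peaks higher in WT drawn to the left and peaks higher in *Chd4-CMko* to the right, grouped by role. All 10 globin entries point to the left, and the longest bars to the right are the 10 peaks of *Zfpm1* and the 6 of *Bcl11a*; a peak within reach of 2 genes is drawn at both.

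The α-globin locus, taken from 10 kb beyond *Rhbdf1* to 10 kb beyond the last globin gene (111 kb of chromosome 11), held 4 lost peaks and 1 gained peak. *Hba-x*, which encodes the embryonic ζ-globin chain, had a lost peak centred 192 bp inside the gene (chr11:32276517-32276667, score 50) and another 1.89 kb from its start, just past its 3′ end (chr11:32278211-32278361, score 57.5). The score is the fifth column of the list, of unstated scale, and these peaks ranked at the 74.9 and 81.9 percentile of the lost list. The other 2 lost peaks lay in *Nprl3*, where the α-globin enhancers are known to be, at 30.6 kb (score 60.2, percentile 83.9) and 25.3 kb (score 45.0, percentile 67.9) upstream of *Hba-x*. The farther of these peaks holds 2 GATA strings, and the nearer holds 1 GATA string, 1 AP-1/NFE2 core and 1 E-box. The nearer one is also 799 bp from an annotated start of an *Nprl3* transcript. The single gained peak, in the same gene 32.6 kb upstream of *Hba-x* (chr11:32243701-32243851, score 42.5), stood at percentile 28.0 of the gained list and holds no GATA string. It lies beyond the farthest lost peak, so that opposite lists met within *Nprl3*.

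*Hba-a1*, an adult α-globin gene, counts as a member with lost peaks through the pair at *Hba-x*, the closer of which is 5.15 kb from it. *Hba-a2* had none, its nearest lost peak being 18.1 kb away. The promoters of *Hba-a1* and *Hba-a2* (RefSeq, GRCm38.p6, 250 bases before to 50 after the start) were identical over 98.0% of aligned positions, so that reads from them are hard to place. Whether reads with several placements were kept is not given in the sources used here, and the absence of a peak at these copies is uncertain for that reason.

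**Figure D2:**
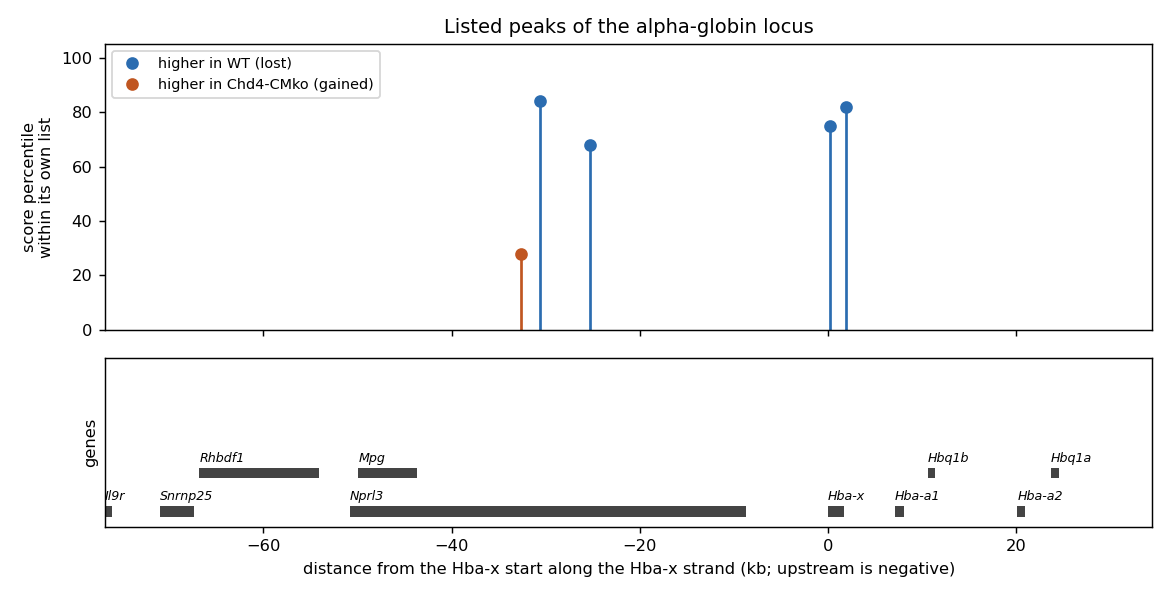
Listed peaks of the α-globin window by distance from the *Hba-x* start in kb (horizontal axis, upstream negative) and by score percentile within their own list (vertical axis), above the annotated genes. The 4 lost peaks fall at *Hba-x* and in *Nprl3*, at percentiles from 67.9 to 83.9, and the gained peak stands at 28.0.

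The β-globin locus, with 70 kb on each side of the globin genes (181 kb of chromosome 7), held 5 lost peaks and 1 gained peak. *Hbb-y*, the embryonic ε-like gene, had a lost peak over its start (chr7:103853159-103853309, 18 bp upstream at its centre, score 34.8) and another 2.11 kb downstream of the start (chr7:103851033-103851183, score 30.8). Upstream, where the locus control region lies, lost peaks stood 7.88 kb (score 64.6) and 12.7 kb (score 28.4) from the start. The peak at 7.88 kb had the highest score of all lost member peaks, at percentile 86.6, whereas the one at 12.7 kb stood at percentile 29.1. The sequence of the peak at 7.88 kb carries a pair of AP-1/NFE2 cores close together, 1 GATA string, 1 KLF string and 2 E-boxes. A tandem pair of NFE2 sites is known from the second hypersensitive site of the locus control region. The peak at 12.7 kb holds 3 GATA strings and no AP-1/NFE2 core.

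At the far upstream border of the window a lost and a gained peak lay side by side. The lost peak, 62.4 kb from *Hbb-y* (chr7:103915527-103915677), had a score of 23.8 and holds none of the motif strings searched. The gained peak, 60.0 kb from *Hbb-y*, had a score of 74 (percentile 58.9) and holds 1 GATA string and a match to the consensus of CTCF, the insulator protein known to bind on both flanks of the locus. *Hbb-bh1*, the other embryonic gene, counts through the pair of lost peaks at *Hbb-y*, the nearer of which is 7.87 kb from it. The adult genes *Hbb-bs* and *Hbb-bt* had no peak, their nearest lost peaks being 22.9 and 37.0 kb away. Listed peaks at the β-globin genes therefore sat at the embryonic end and at distal elements.

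**Figure D3:**
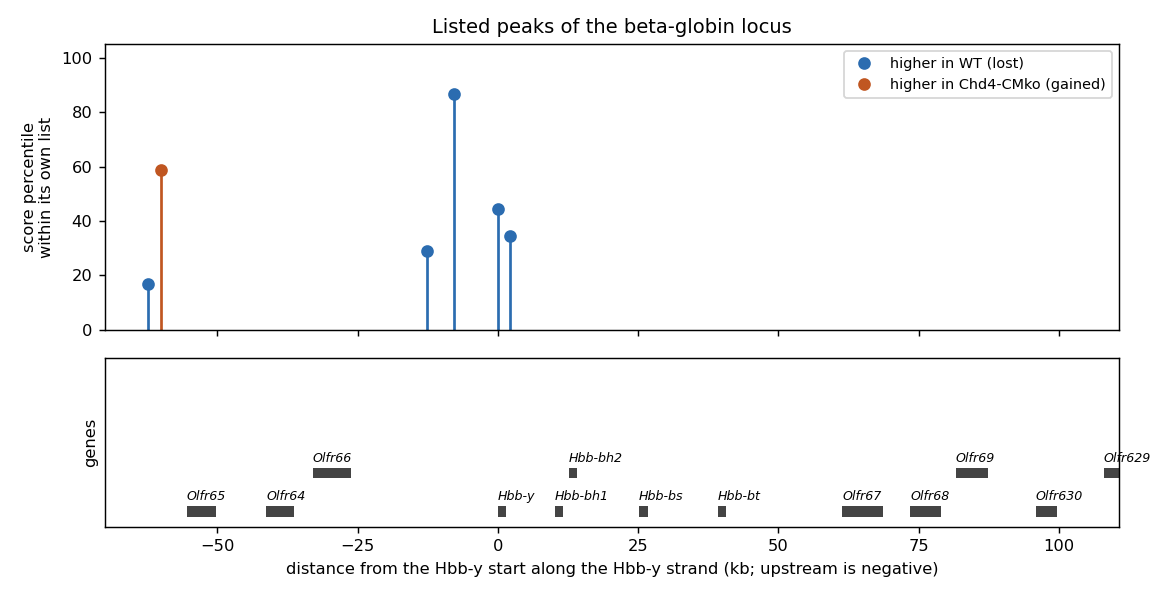
Listed peaks of the β-globin window by distance from the *Hbb-y* start in kb (horizontal axis, upstream negative) and by score percentile within their own list (vertical axis), above the annotated genes. Lost peaks cluster from 12.7 kb upstream to 2.11 kb downstream of the *Hbb-y* start, with the highest at 7.88 kb upstream (percentile 86.6), and no listed peak lies at the adult genes.

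The globin loci held runs of lost peaks. When lost peaks with gaps of at most 30 kb were joined into runs, 2377 of 2549 runs were single peaks, and 2 runs held 4 peaks: 32.6 kb of the α-globin locus and 15.0 kb of the β-globin locus. No run was longer. This limit was chosen after the peaks were seen and the count depends on it. At 10 or 20 kb the β-globin run was the only 1 with 4 peaks and the largest α-globin run had 2, while at 50 kb 7 runs and at 100 kb 27 runs held 4 or more, and the longest had 5 and 8 peaks.

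Of 10 erythroid regulators, 5 (50%) had a gained peak and 2 (20%) a lost peak, beside 37.4% and 10.8% of all genes, and 4 had neither. *Zfpm1*, which encodes the GATA1 cofactor FOG1, had the most peaks of any member, 10 gained and none lost, with scores from 49 to 295. They ran from 137 kb upstream of its first start to inside the gene, and 10 of 10 also lie within *Gm20388*, a long gene annotated across the region. The highest (chr8:122336401-122336551, score 295, percentile 97.2) was 1.84 kb from an internal start near the 3′ end and had a GC content of 77.5%. *Bcl11a*, a repressor of embryonic and fetal globin genes, had 6 gained peaks with scores from 35.5 to 99, of which 4 lie in its introns. Its single lost peak is also intronic, 11.3 kb past the start (chr11:24091851-24092001, score 48.9, percentile 73.5), and holds 1 GATA string. *Lmo2*, whose product bridges GATA1 and TAL1, had 3 gained peaks 11.5, 56.3 and 76.7 kb upstream, with scores of 78.5, 75 and 184.5.

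*Gfi1b*, a repressor required for red cell and platelet formation, had 1 gained peak (chr2:28612502-28612652, score 58.5) 2.83 kb from an internal start. *Gata1*, the central erythroid regulator, had 1 gained peak 15.0 kb upstream (score 39, percentile 23.0), 92.1% of which is annotated as repeat, and its nearest lost peak was 124 kb away. *Trim10*, a RING-type protein of terminal erythroid differentiation, was the regulator with a lost peak at its start, 114 bp upstream (score 50.7, percentile 76.0). That peak holds 1 GATA string, 1 AP-1/NFE2 core and 1 E-box. *Klf1*, *Tal1*, *Nfe2* and *Hemgn* had no listed peak. The nearest to *Klf1* was a gained peak 29.6 kb away and the nearest to *Nfe2* a lost peak 19.0 kb away, whereas the nearest to *Tal1* was a lost peak 276 kb away.

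In the heme and iron pathway, lost peaks stood at *Alas2* and *Uros* and gained peaks at *Tspo2*, *Urod* and *Cpox*. *Alas2*, the erythroid enzyme that begins heme synthesis and limits its rate, had 2 lost peaks, 2.38 kb (score 23.1) and 17.4 kb (score 21.8) inside the gene. Both hold 2 GATA strings, and the first also a KLF string, yet both ranked low in the lost list, at percentiles 15.3 and 12.2. *Apex2* is annotated over the same stretch. *Uros*, uroporphyrinogen III synthase, had its lost peak 4.99 kb upstream, inside the neighbouring gene *Bccip* and 320 bp past the start of a processed transcript of it (score 45.0, with 1 GATA string). The gained peak tied to *Tspo2* (chr17:48454255-48454405, score 53.5) lies 571 bp upstream of its neighbour *Unc5cl*. The one tied to *Urod* (score 244.5) lies inside its neighbour *Hectd3*, 7404 bp past the protein-coding start and 135 bp before the start of a short transcript with a retained intron. *Cpox*, coproporphyrinogen oxidase, had a gained peak inside the gene (score 44). *Alad*, *Ppox*, *Fech*, *Slc25a37* and *Slc25a38* had no peak in either list. Of the receptor and iron uptake genes, *Tfrc*, the transferrin receptor, had a gained peak 40.3 kb upstream (score 114.5), and *Epor*, the erythropoietin receptor, had none, the nearest being a gained peak 11.1 kb away.

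Of 13 membrane and skeleton genes, 4 (30.8%) had a lost peak, beside 10.8% of all genes, 5 (38.5%) a gained peak, beside 37.4%, and 5 neither. *Sptb*, β-spectrin, was in both. Its gained peak, 134 bp upstream of the start (chr12:76710082-76710232), had the highest score of all gained member peaks, 459.5 (percentile 99.7), and its lost peak lies 39.2 kb inside the gene (chr12:76670738-76670888, score 59.9, percentile 83.7) and holds 2 GATA strings. *Ank1*, ankyrin, which ties spectrin to the membrane, had 2 gained peaks, 94 bp upstream of its first start (chr8:22974675-22974825, score 102.5) and 111 bp past an internal start (chr8:23058561-23058711, score 354.5, percentile 98.8). These promoter peaks were rich in GC, at 74.2% for *Sptb* and 84.1% and 78.1% for *Ank1*, beside a median of 55.0% over the gained list.

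*Kel*, the Kell blood group protein, had a lost peak 2.10 kb upstream (score 29.1) with 1 GATA string and 1 AP-1/NFE2 core. *Epb42*, protein 4.2, had a lost peak 17.9 kb upstream in a *Tgm5* intron (score 26.4) with 2 GATA strings and 1 AP-1/NFE2 core. The lost peak of *Rhag*, the Rh-associated glycoprotein, stands 4.25 kb upstream, 127 bp past the start of a processed transcript of *Crisp2* (score 22.3), and holds an E-box but no GATA string. *Tmod1*, which caps actin filaments in red cells and in heart muscle, had 2 gained peaks (scores 100.5 and 52). The latter lies inside the neighbouring gene *Tstd2*, whose start is the nearest. *Aqp1*, a water channel, had 1 gained peak 26.0 kb upstream (score 68.5), inside its neighbour *Mindy4* and within 3 kb of another annotated start. *Add2*, β-adducin, had 1 in an exon (score 53.5). *Gypc*, *Slc4a1*, *Epb41*, *Rhd* and *Dmtn* had no peak, nor did *Car2*, a carbonic anhydrase.

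Since nearness to a gene chose the member peaks, their places are given as a description. Of 18 lost member peaks, 11 were within 3 kb of an annotated start, 4 were intronic and 3 intergenic. Of 34 gained member peaks, 9 were within 3 kb of a start, 18 were intronic, 6 intergenic and 1 exonic. The intronic ones came mainly from *Zfpm1* and *Bcl11a*, with 15 of their 16 gained peaks, and 3 of the 18 gained peaks elsewhere were intronic. By score, lost member peaks were in the middle of their list, with a median of 39.9 beside 36.8 and 9 of 18 above the list's median, and spanned 21.8 to 64.6. Gained member peaks had a median of 76.8 beside 62.5, with 21 of 34 above. Scores of the lists are not compared with each other here, since their values move in different steps (0.2 and 0.5). Only a recount given at the end applies a common score limit to both.

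**Figure D4:**
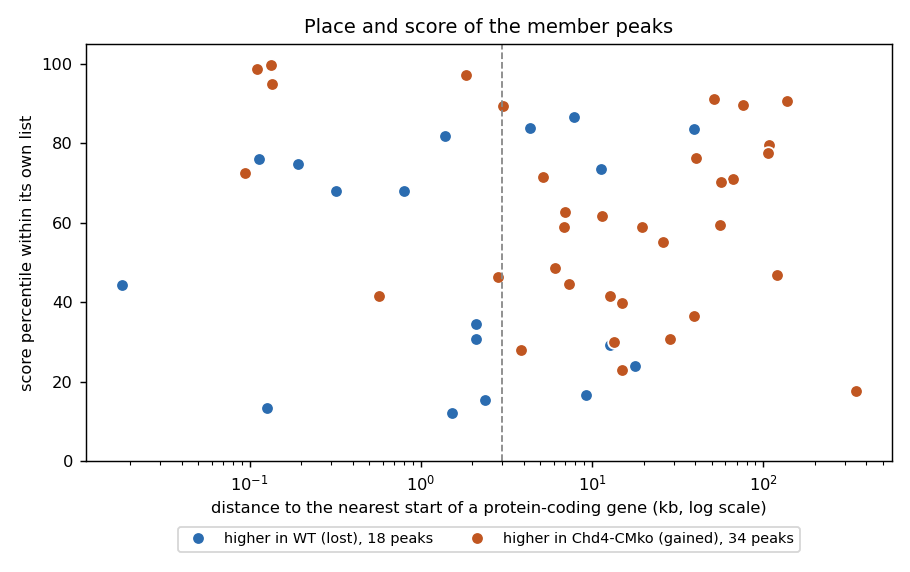
Each of the 52 peaks by distance to the nearest start of a protein-coding gene (horizontal axis, kb, log scale; the dashed line is at 3 kb) and score percentile within its own list (vertical axis). Lost peaks lie mostly to the left of 10 kb and none has a percentile above 86.6, whereas gained peaks extend past 100 kb and up to percentile 99.7.

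GATA strings were more frequent in lost member peaks than in the lost list, and not in gained ones. The motifs, like the members, were chosen with earlier results of these data known. They occurred in 12 of 18 lost member peaks (66.7%, Wilson 95% interval 43.7% to 83.7%), beside 29.3% of all lost peaks. In gained member peaks they occurred in 8 of 34 (23.5%, 12.4% to 40.0%), beside 27.2% of all gained peaks. At least 2 copies were present in 6 of 18 lost member peaks, beside 5.06% of the lost list, and in none of the 34 gained ones, beside 5.46%. Outside the globin windows 8 of 9 lost member peaks held one, the *Rhag* peak being the exception, and inside the windows 4 of 9 did. With 100 bp added on each side, the share rose to 88.9% of lost member peaks beside 54.0% of the lost list, and to 47.1% of gained member peaks beside 46.2%. Since erythroid genes are known for GATA sites, the same strings were counted in their RefSeq promoters, of which 33 could be matched: 21 (63.6%) held one, beside 28.9% of 16522 protein-coding genes. *Klf1*, *Tal1*, *Epor* and *Hemgn* are among these 21 and had no listed peak.

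The AP-1/NFE2 core was present in 5 of 18 lost member peaks (27.8%, 12.5% to 50.9%, beside 6.96% of the list) and in 5 of 34 gained ones (14.7%, 6.45% to 30.1%, beside 4.19%). It was thus more frequent than in the list on both sides, and 3 of the 5 gained peaks with it belong to *Zfpm1*. The lost peaks with it were those of *Trim10*, *Kel* and *Epb42*, 1 in *Nprl3* and 1 upstream of *Hbb-y*. KLF strings (CCACNCCC) were found in 2 lost peaks (11.1%, beside 4.59%) and 9 gained peaks (26.5%, beside 17.7%). E-boxes (CAGNTG), the core bound by TAL1 and many other factors, were found in 7 lost peaks (38.9%, beside 36.4%) and 9 gained peaks (26.5%, beside 36.2%). No lost member peak matched the CTCF consensus (interval up to 17.6%, beside 2.48% of the list). Each string was searched on both strands and a base could count for more than 1 motif. Base composition was similar, with a median GC content of 52.3% in lost member peaks beside 50.3% in their list, and 57.0% in gained ones beside 55.0%.

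**Figure D5:**
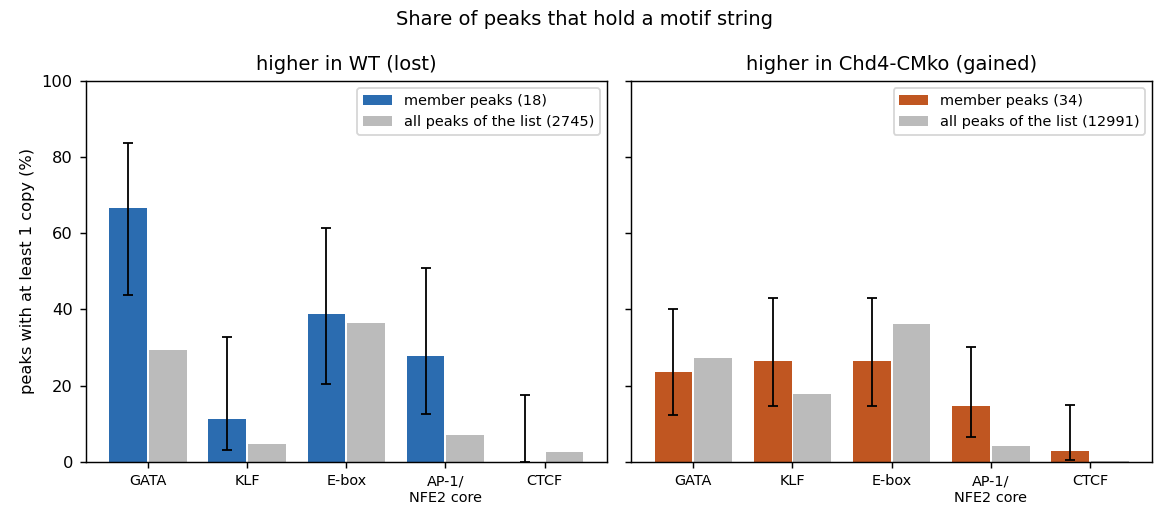
Share of peaks with at least 1 copy of each motif string (vertical axis, percent), for member peaks (coloured bars, with Wilson 95% intervals over peaks) and for all peaks of the same list (grey bars). In the lost panel the GATA bar stands at 66.7% beside 29.3%, and in the gained panel at 23.5% beside 27.2%.

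Further genes of red cell biology were counted from another list, of which 68 of 69 were matched. Of these, 10 (14.7%) had a lost peak and 29 (42.6%) a gained one, beside 10.8% and 37.4% of all genes. Within 3 kb of a start, 1 of the 68 had a lost peak and 5 a gained one, beside 1.23% and 12.3% of all genes. The higher share of lost peaks near starts seen in the members was thus not seen in this list. The lost peaks were tied to *Hbq1b*, through the peak at *Hba-x*, to the regulators *Bach1*, *Klf3*, *Mbd2*, *Runx1* and *Sox6*, and to *Bpgm*, *Car1*, *Cd47* and *Ermap* of the membrane and enzyme group. Of 22 regulators in this list, 5 (22.7%) had a lost peak and 14 (63.6%) a gained one. Within 3 kb of a start 0 of them had a lost peak, near the 1.23% of all genes. *Sox6*, a factor that silences embryonic globin, had 6, with scores from 24.5 to 79.8, and 9 gained ones, with scores from 31 to 235. *Cd47*, which protects red cells from phagocytosis, had one 299 bp upstream of its start (score 34.8). Of 20 further heme and iron genes 0 had a lost peak and 7 (35.0%) a gained one. Gained peaks within 3 kb of a start were found at *Cbfa2t3*, *E2f2*, *Sox6*, *Tfr2* and *Tpm3*, the highest score being 353.5 at *E2f2*.

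Marker genes of the cell types that a dissociated heart can hold were read in the same way, beside 10.8% of all genes with a lost peak and 37.4% with a gained one. Of 7 erythroid markers, 4 had a lost peak and 1 a gained peak. All of these (*Alas2*, *Hba-x*, *Hbb-bh1* and *Hbb-y* lost, *Gata1* gained) are members, so the counts repeat those given above. Of 10 macrophage markers 1 had a lost and 3 a gained peak, and of 5 megakaryocyte markers 1 and 2. Of 10 cardiomyocyte markers 1 had a lost peak and 6 a gained peak. Lost peaks were also tied to markers of other cells: of 7 endothelial markers 3 had a lost and 5 a gained peak, and of 5 epicardial markers 4 and 2. Within 3 kb of a start, where 1.23% of all genes had a lost peak, 3 of the 7 erythroid markers and 1 of the 5 megakaryocyte markers (*Gp9*) had one, and 0 of the macrophage, cardiomyocyte, endothelial and epicardial markers did. The 3 (*Alas2*, *Hba-x* and *Hbb-y*) are again members, and 0 of so few genes is near the share of all genes. The part of cell composition in the lost peaks of the erythroid genes was not tested.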

How the data were processed

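Hearts of E10.5 embryos (4 WT and 4 *Chd4-CMko* samples, each a pool of hearts) were profiled by ATAC-seq. Per the study's methods, reads were aligned to mm10 with BWA-MEM, peaks were called with HOMER v4.10.3, a 2-fold change was the limit for a differential peak, and annotation used ChIPseeker v1.20.0. Read filters, the Tn5 offset and how samples were combined are not given in the sources used here. The score in each peak list is as deposited by the authors, with its scale unstated. It was used for ranks and medians within a list, and in a recount for a limit common to both lists. Counts per sample were not used here, so no test between genotypes was made and the precision of single peaks is unknown.

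Peaks were tied to genes with GENCODE M21 (all transcripts of protein-coding genes), and motif strings were searched in mm10 with Python 3.11.15, pandas 2.3.3 and pysam 0.24.0. Shares have Wilson 95% intervals (scipy 1.17.1). The rule, the motif search and the intervals were tested on simulated data. The members, gene lists, motifs and windows were chosen with earlier results of these data known. Every member was accounted for. Coordinates were given for peaks in globin windows, within 3 kb of a member's TSS or of highest score. Of *Zfpm1* and *Bcl11a*, the members with the most peaks, 1 peak each has coordinates. They were also given for the lost peak of *Sptb*, chosen after its score was seen. Other pathway genes were named where they had a lost peak or a gained peak within 3 kb of a TSS. 1 gene of these lists is not reported here.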

Additional observations from a re-analysis of the deposited data

How the results depend on the processing

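Against 10 other settings for genes and scores, 36 of 48 recounts of the 5 main results stayed within 1.5 times the reported count, or within the interval of the gained share. The share of members with a lost peak was 1.82 to 3.5 times that of all protein-coding genes, and the share with a gained peak 0.767 to 1.07 times. Lost member peaks numbered 9 among peaks at or above the median score of their list, 9 with a common score limit of 36.8 for both lists, and 9 without the globin genes and their windows. Members with a lost peak numbered 7 under either score limit, and 8 with a 3 kb window or with the nearest TSS only. Gained member peaks numbered 54 with a 50 kb window, 19 within 10 kb of the body only, and 21 at or above the list's median score. Members with a gained peak numbered 26 with the 50 kb window and 9 at or above the list's median score. The gained share was 78.6% with the common score limit and 78.0% without the globin genes. The value with the common limit can be read only if both lists score on the same scale, which is unknown. Smaller counts under a score limit follow from fewer peaks, and a wider window takes in more. Leaving out the globin genes, the use of starts of protein_coding transcripts only and the gap limits of runs were chosen after seeing the data. Of 20 motif shares under other settings, 15 stayed within their interval, and 4 of the other 5 came from the wider interval. No paired analysis was possible because the lists are pooled over samples, and for the same reason no sample could be left out in turn. Depth limits what a missing peak means: a region absent from both lists may be closed, or open alike in both genotypes.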
